A study of Mus musculus with 22 samples.

Results

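Zic1, Zic2, Zic4 and Zic5 are 4 of the 32285 genes counted in a single-cell time course of mouse gastruloids, and they were taken by their symbols from the gene lists of the count matrices. Gastruloids are aggregates of embryonic stem cells that elongate and form caudal cell types of the embryo without extraembryonic tissue. All samples here came from 1 wild-type line, E14Tg2A, seeded at 300 cells per well in N2B27 medium and given 3 µM of CHIR99021 at 48 hours, which blocks GSK3 and so switches on Wnt target genes. Single gastruloids were marked with the lipid-bound barcodes of MULTI-seq, pooled and captured on 10x 3′ lanes, so that each cell with a barcode call can be returned to its gastruloid.

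The authors' calls name 136 gastruloids, which are the replicates of each day, and 1 of them, from day 4 of MULTI-seq 2, was left out because it held under 30 called cells. The experiment MULTI-seq 1 gave 24 gastruloids of day 5. MULTI-seq 2 gave 11 of day 4 and 12 of day 4.5 in 1 pool. Another pool of those days, without gastruloid calls, enters only the values by lane and those over all or uncalled cells of a type. MULTI-seq 3 gave 24 of day 3 in a pool of their own, 16 of day 3.5 and 16 of day 4 in another pool, and 16 of day 4.5 and 16 of day 5 in the last. A further experiment without gastruloid barcodes, called 10X, holds 1 lane each of days 3 and 4. No group carries a mutation or another treatment. The gastruloids were picked by hand as representative, up to 32 of them, and 1 stem cell line is the source of every sample, so the spread given here is that between gastruloids of 1 line within an experiment.

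Zic genes encode transcription factors with 5 C2H2 zinc fingers, relatives of the Gli factors of hedgehog signalling. In the mouse embryo they are known for roles in the dorsal neural tube, in gastrulation and in the somites, the segmented blocks of mesoderm that form from presomitic mesoderm (PSM). Zic2 loss disturbs forebrain patterning and neural tube closure, Zic1 and Zic4 together are linked to cerebellar growth, and Zic5 to neural tube closure and neural crest. The genes lie in head-to-head pairs. In the GENCODE M21 annotation of GRCm38, Zic1 (ENSMUSG00000032368) lies at chr9:91358058-91365810 on the minus strand and Zic4 (ENSMUSG00000036972) at chr9:91362413-91389348 on the plus strand, so that their annotated spans share 3398 bases. Zic5 (ENSMUSG00000041703) lies at chr14:122456795-122465677 on the minus strand and Zic2 (ENSMUSG00000061524) at chr14:122475435-122479852 on the plus strand, with 9757 bases between them. The shared span lies at the start side of both genes, away from their annotated 3′ ends. The labels do not say whether reads were counted by strand, so any Zic1 and Zic4 reads in the shared span may not be told apart.

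The stretches just upstream of the annotated exons of Zic1 and Zic5 are shown because each is the start side of a pair whose partners are compared below. They come from RefSeq windows of 250 bases before the transcript start (GRCm38.p6, matched by symbol for 3 of the 4 genes), are read 5′ to 3′ on the strand of the gene, leave out bases within annotated exons, and carry CpG dinucleotides in capitals. The Zic1 stretch is chr9:91365811-91366018 and the Zic5 stretch is chr14:122465678-122465908.
Zic1: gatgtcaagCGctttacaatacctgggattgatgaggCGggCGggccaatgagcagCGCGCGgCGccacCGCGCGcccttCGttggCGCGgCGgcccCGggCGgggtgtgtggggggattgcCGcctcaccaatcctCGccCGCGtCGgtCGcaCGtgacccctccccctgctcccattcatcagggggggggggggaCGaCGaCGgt
Zic5: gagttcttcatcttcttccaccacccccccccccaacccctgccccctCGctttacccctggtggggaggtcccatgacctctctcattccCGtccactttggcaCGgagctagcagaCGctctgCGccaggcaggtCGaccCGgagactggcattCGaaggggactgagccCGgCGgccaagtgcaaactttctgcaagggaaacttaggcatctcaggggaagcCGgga
The Zic1 window of 250 bases held 27 CpG dinucleotides, at least as many as 92.3% of the 32851 windows of the same length over all genes, whose median was 6. The Zic5 stretch held 11, and 66.5% of all windows held no more. The Zic4 window held 4, and 44.4% of windows held no more, but it lies within annotated exons and is not printed. Neither CTTTGA, the core recognised by the TCF and LEF factors of Wnt signalling, nor CAGCAGG, a core recognised by ZIC proteins, occurred in these windows on either strand. CTTTGA occurred in 13.8% and CAGCAGG in 8.44% of all windows.

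The files describe 77674 cells on 18 lanes, of which 53730 carry a gastruloid call, and 25 cell type names given by the authors. The median count per cell ran from 8287 to 38443 unique molecular identifiers (UMIs) over the lanes, and the median mitochondrial share from 1.94% to 2.26% in MULTI-seq 3 and from 4.85% to 5.48% elsewhere. Of the cell barcodes, 732 occurred on more than 1 lane, with at most 15 shared by any pair of lanes, and lanes of 1 pool shared 95. The authors' names were set against defining markers. Among types, Sox1 was highest in Late Neurectoderm, Sox2 and Pax6 in Late Spinal Cord, Tubb3 in Neurons, Tbx6 in Late Posterior PSM, Tcf15 in Somites, Meox1 in Mature Somites and Cdx2 in the neuromesodermal progenitors (NMPs), which can give spinal cord and PSM. Other markers peaked outside the type they were listed for. T was highest in Notochord and Nkx1-2 in Caudal Neurectoderm (both listed for NMPs), Aldh1a2 in Early Anterior PSM (somites), Pecam1 and Nanog in the primordial germ cells named PGCs (endothelium, epiblast), Prdm1 in Cardiopharyngeal Mesoderm (germ cells), and Isl1 in Neurons, Prrx2 in Somites and Gata4 in Late Nascent Mesoderm (cardiopharyngeal and head mesoderm). None of the 3 epiblast markers was highest in an epiblast type, with Pou5f1 highest in Primitive Streak and Fgf5 in Anterior Primitive Streak. Levels are CPM, the UMIs of a gene scaled to the total UMIs of the summed cells of a gastruloid. One UMI stands for 1 captured 3′ end and is not scaled to transcript length, so levels are compared between samples and not between genes.

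In whole gastruloids, Zic1 was scarce through day 4 of MULTI-seq 3 and higher at days 4.5 and 5. Its lowest, median and highest values were 1.00, 1.65 and 4.05 CPM at day 3, and 0.30, 2.91 and 7.53 CPM at day 3.5. They were 0.80, 1.56 and 8.21 CPM at day 4, 1.50, 6.52 and 14.8 CPM at day 4.5, and 2.55, 8.50 and 21.9 CPM at day 5. The ranges of all neighbouring days overlapped. Zic4 gave few UMIs, with means between 0.41 ± 0.16 CPM (SD, n = 16) at day 4 and 0.85 ± 0.31 CPM (SD, n = 16) at day 5. Zic2, which is active in epiblast and early mesoderm as well as in the neural tube, was highest at day 3, with 55.4, 66.0 and 84.3 CPM as lowest, median and highest value. At day 3.5 it lay at 21.7, 43.9 and 63.8 CPM, and from day 4 on its means stayed between 37.2 ± 8.45 and 43.3 ± 7.52 CPM (SD, n = 16 each). Zic5 had a median of 58.9 CPM at day 3 (range 51.0 to 66.7) and of 54.9 CPM at day 3.5 (18.5 to 67.1). Its median was 28.5 CPM at day 4 (19.4 to 61.1), 34.5 CPM at day 4.5 (23.6 to 43.5) and 29.4 CPM at day 5 (15.8 to 40.8). In a sum over a whole gastruloid, fewer cells of a type and less RNA per cell cannot be told apart.

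**Figure D1:**
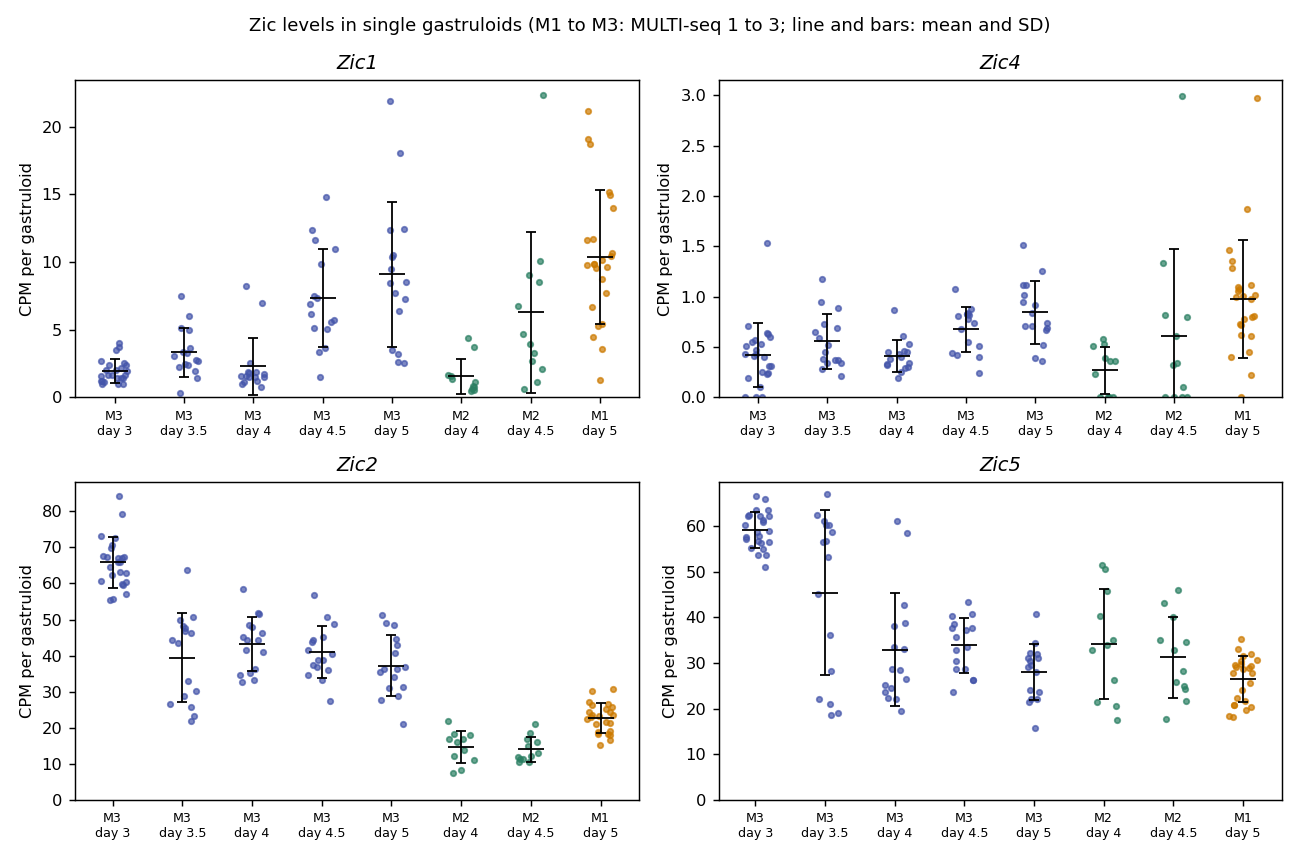
Level of Zic1, Zic4, Zic2 and Zic5 in each gastruloid (y axis, CPM of all its cells; 1 dot per gastruloid) by day and experiment (x axis; M1 to M3 stand for MULTI-seq 1 to 3), with mean and SD. Zic1 means were 7.35 and 9.09 CPM at days 4.5 and 5 of MULTI-seq 3 against 1.95 to 3.32 CPM before, and the Zic2 dots of MULTI-seq 2 lie at 21.8 CPM or less.

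Between days held in 1 pool, 3 of the members could be tested with edgeR's quasi-likelihood test, because Zic4 did not pass the filter on low counts in any whole-gastruloid comparison between days. From day 4 to day 4.5 of MULTI-seq 2, Zic1 rose from a median of 1.13 CPM (0.50 to 4.36) to 4.33 CPM (0.59 to 22.4). The log2 fold change was 2.07 (SE 0.53, edgeR, Benjamini-Hochberg adjusted p = 0.0170), and 10 of 12 later gastruloids lay above the earlier median. In that comparison 7.36% of the genes tested were called, and Zic1 was the 1 member called. The median share of cells with a neural type name was 2.50% at day 4 and 21.7% at day 4.5 there, and 1.18% and 21.2% in MULTI-seq 3, and its part in the Zic1 change was not tested. Zic2 and Zic5 did not pass, at log2 fold changes of -0.09 and -0.15 (adjusted p = 0.81 and 0.71).

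From day 3.5 to day 4 of MULTI-seq 3, where 60.4% of genes were called, Zic5 was the 1 member called, with a log2 fold change of -0.48 (SE 0.19, edgeR, adjusted p = 0.0316) and 14 of 16 later gastruloids below the earlier median. The call was lost with at least 100 cells per gastruloid (adjusted p = 0.0663) and in a permutation test of the log2 levels (adjusted p = 0.144). Zic1 was at -0.63 (SE 0.31, edgeR adjusted p = 0.0769), and Zic2 at 0.12 (adjusted p = 0.39). From day 4.5 to day 5, where 13.5% of genes were called, no member passed. Zic5 lay at -0.30 (SE 0.10, edgeR adjusted p = 0.0513) with 15 of 16 later gastruloids below the earlier median, and DESeq2 put it past the threshold (adjusted p = 0.0328). Zic1 was at 0.29 (edgeR adjusted p = 0.55) and Zic2 at -0.16 (adjusted p = 0.31).

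The other 2 steps of MULTI-seq 3 compare different pools, so day and pool cannot be told apart there. From day 3 to day 3.5, where 74.8% of genes were called, Zic2 was lower in 16 of 16 gastruloids than the day 3 median (log2 fold change -0.92, edgeR adjusted p = 1.17e-11). Zic5 was lower at -0.57 (adjusted p = 8.0e-05), in 11 of 16. Zic1 was higher at 0.62 (edgeR adjusted p = 0.0055), in 14 of 16, but not past the threshold without lane A of day 3 (adjusted p = 0.0595). From day 4 to day 4.5, where 66.1% of genes were called, Zic1 was higher by 1.93 on the log2 scale (edgeR adjusted p = 2.9e-06), in 15 of 16 gastruloids. The same step of MULTI-seq 2, within 1 pool, gave the 2.07 above. Zic2 and Zic5 did not pass at that step (edgeR adjusted p = 0.23 and 0.13). Zic4, at 0.68 ± 0.22 against 0.41 ± 0.16 CPM (SD, n = 16 each), was higher in 15 of 16 and passed when no filter was set (log2 fold change 0.89, edgeR adjusted p = 2.3e-04) and by permutation (adjusted p = 0.0041).

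Gastruloids of 1 day differed widely in the share of their cells that bear a neural name (Early, Caudal or Late Neurectoderm, Early or Late Spinal Cord, Neurons), which ran from 0.50% to 83.5% at day 3.5 of MULTI-seq 3. These shares fell into 2 sets on every day after day 3, and the sets were made from the cell names after seeing the data. The names come from clusters of the same counts, in which the Zic genes are marked highly variable. Neural share and Zic level are therefore not independent. At day 3.5 the 7 gastruloids with at most 23.5% neural cells had Zic2 at 21.7 to 33.0 CPM and Zic5 at 18.5 to 45.2 CPM. The 9 with at least 42.0% had Zic2 at 43.4 to 63.8 CPM and Zic5 at 53.3 to 67.1 CPM, so neither gene overlapped between the sets. Of the 7648 genes with a mean of at least 10 CPM that day, 6.62% were likewise higher in the upper set with no overlap. Zic1 did overlap, at 1.44 to 3.62 CPM in the lower and 0.30 to 7.53 CPM in the upper set. At day 4 the share was 3.63% or less in 14 gastruloids, with Zic1 at 0.80 to 2.54 CPM and Zic5 at 19.4 to 42.7 CPM. In the other 2, Zic1 was at 6.96 and 8.21 CPM and Zic5 at 58.6 and 61.1 CPM, beside 23.8% of 7796 genes that were higher there with no overlap. That share covers genes with a mean of at least 10 CPM. Zic1, at 2.30 CPM in the mean, is not among them, and no share was computed for genes at its level. Zic2 overlapped, at 46.2 and 48.0 CPM in those 2 gastruloids against 32.7 to 58.5 CPM. At day 4 of MULTI-seq 2 (8 and 3 gastruloids), Zic1 overlapped too, at 0.54 to 1.63 CPM in the lower and 0.50 to 4.36 CPM in the upper set. Zic2 overlapped as well, with medians of 16.5 CPM in the lower and 13.9 CPM in the upper set. Zic5 did not, at 17.4 to 40.4 against 45.8 to 51.6 CPM. The share of all genes without overlap was not computed for that day, so nothing is read about Zic5 from these ranges.

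At days 4.5 and 5 of MULTI-seq 3 the order of Zic2 was the other way round from day 3.5. The 9 gastruloids of day 4.5 with at most 26.9% neural cells had Zic2 at 35.9, 44.2 and 56.9 CPM (lowest, median, highest), and the 7 with at least 61.6% at 27.5, 37.0 and 38.7 CPM. At day 5 the 12 with at most 43.5% had Zic2 at 31.0, 38.8 and 51.3 CPM and the 4 with at least 66.1% at 21.0, 28.3 and 34.0 CPM. Zic5 was higher in the median on the neural side at day 4.5, at 38.6 against 30.5 CPM, and lower at day 5, at 22.1 against 30.8 CPM, with overlapping ranges on both days. Zic1 medians kept the neural side higher, at 9.88 against 5.59 CPM at day 4.5 and 11.5 against 7.52 CPM at day 5, with overlapping ranges. Within sets of at least 6 gastruloids, 44 relations between neural share and a Zic level were computed. Their p-values do not allow for cell names that were clustered on the same counts. Past the threshold were those in the lower set of day 3.5 (n = 7), with Pearson's r = 0.874 for Zic2 and 0.955 for Zic5 (exact permutation test, adjusted p = 0.017 for each). Spearman's rho was 0.964 for each (exact permutation, adjusted p = 0.061), and r without the 2 farthest gastruloids was 0.886 and 0.813. In the upper set (n = 9) r was 0.834 for Zic2 and 0.795 for Zic5 (exact permutation, adjusted p = 0.054 and 0.101). The day 4 change of Zic5 above therefore compares a day on which 9 of 16 gastruloids were in the upper neural set with one on which 2 of 16 were. The part of that makeup in the change was not tested in the whole sums.

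**Figure D2:**
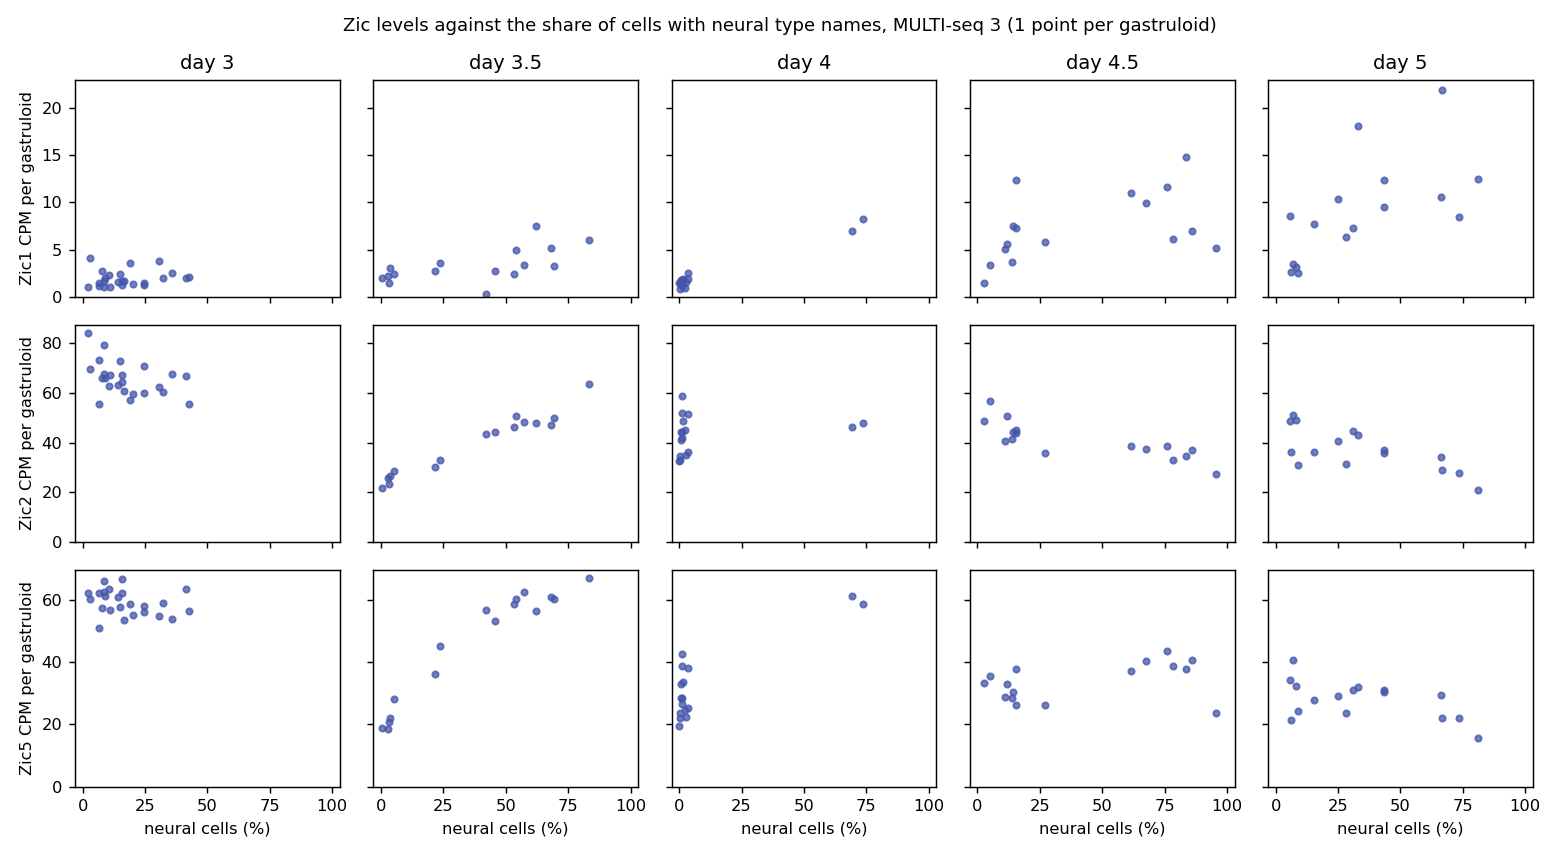
Level of Zic1, Zic2 and Zic5 per gastruloid (y axis, CPM) against the percent of its cells with a neural type name (x axis) for the 5 days of MULTI-seq 3; each point is 1 gastruloid. Zic2 climbs with the neural share at day 3.5, from 21.7 to 63.8 CPM, and lies lower at high shares at days 4.5 and 5.

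The type levels that follow are descriptions, because the types were clustered on the same counts and the authors' gene table marks the Zic genes among the 4214 highly variable of 30406 genes. A type was ranked where at least 5 gastruloids held at least 10 of its cells, and neighbours in the order are said to differ where their means differ by more than the larger SD. Among the types ranked, Zic1 was led by the spinal cord at day 5. Late Neurectoderm, too rare to be ranked, lay above Early Spinal Cord of MULTI-seq 3 at days 3.5, 4 and 5, but not at day 4.5, when its cells were summed. At day 5 of MULTI-seq 3, Early Spinal Cord held 20.8 ± 9.32 CPM (SD, n = 16; lowest 8.81, median 18.9, highest 36.6) and Late Spinal Cord 14.5 ± 5.9 CPM (SD, n = 8). Endothelium was next at 12.5 ± 17.4 CPM (SD, n = 6), with a median of 2.75 CPM and a highest value of 38.3 CPM, and NMPs were at 12.2 ± 9.17 CPM (SD, n = 16). Mature Somites followed at 4.86 ± 3.35 CPM (SD, n = 16), Late Anterior PSM at 1.1 CPM, and Mature Endoderm was last at 0.098 CPM. None of the 9 neighbouring pairs in this order differed beyond their spread, although the ends did. At day 3.5, Early Spinal Cord (14 ± 11 CPM, SD, n = 10; lowest 0, median 12.3, highest 30.8) stood only just beyond the spread above Caudal Neurectoderm at 2.94 CPM. It led at day 4 too, with 11.5 ± 6.99 CPM (SD, n = 5). At day 4.5 it led by the mean only, with 17.6 ± 15.5 CPM (SD, n = 15; median 9.91, highest 57.3). Late Spinal Cord was at 15.9 ± 7.51 CPM (SD, n = 7) that day, with a higher median of 15.3 CPM. Early Spinal Cord also led at day 5 of MULTI-seq 1 with 20.9 ± 11.2 CPM (SD, n = 23). At day 4.5 of MULTI-seq 2 the order was Late Spinal Cord at 12.5 ± 3.96 CPM (SD, n = 5) and Early Spinal Cord at 8.97 ± 13.0 CPM (SD, n = 11), which did not differ beyond their spread.

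Of the types ranked, Zic4 was highest in Early Spinal Cord at day 5, with 2.13 ± 1.67 CPM (SD, n = 16; lowest 0.352, median 1.5, highest 5.98). Endothelium at 1.60 ± 1.33 CPM (SD, n = 6), NMPs at 1.1 CPM, Head Mesoderm at 1.08 CPM, Mature Somites at 0.987 CPM and Late Spinal Cord at 0.662 CPM did not differ from their neighbours beyond the spread. No neighbours in the Zic4 order did on any day.

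Zic2 and Zic5 were led by mesoderm that is about to form somites. At day 5 of MULTI-seq 3, Zic2 was at 118 ± 12.4 CPM in Late Anterior PSM (SD, n = 15; lowest 99.7, median 114, highest 143), beyond the spread above Head Mesoderm at 70 ± 16.8 CPM (SD, n = 7). Somites were at 68.1 ± 13.8 CPM (SD, n = 12) and Mature Somites at 53.1 ± 11.9 CPM (SD, n = 16). Late Posterior PSM followed at 29.5 CPM, Early Spinal Cord at 24.7 CPM, NMPs at 19.1 CPM and Mature Endoderm at 17.7 CPM. So the Zic2 level in Late Anterior PSM exceeded that in Late Posterior PSM, its less mature neighbour along the body axis, in these means. Zic5 had the same leader, at 98.3 ± 17.6 CPM (SD, n = 15; lowest 67.9, median 102, highest 120), beyond the spread above Somites at 55.1 CPM. Mature Somites were at 33.6 CPM, Head Mesoderm at 30.7 CPM, Early Spinal Cord at 28.8 CPM, Late Posterior PSM at 14.9 CPM and Mature Endoderm at 5.75 CPM. Of the 9 neighbouring pairs, 3 differed beyond their spread for Zic2 and 2 for Zic5.

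Late Anterior PSM led both genes at day 4 (Zic2 122 ± 14.4 CPM, SD, n = 10) and at day 4.5 (Zic2 133 ± 17.4 and Zic5 109 ± 28.7 CPM, SD, n = 9). Before that, at day 3, Early Nascent Mesoderm, the mesoderm leaving the primitive streak, led with 109 ± 17.8 CPM of Zic2 and 82.9 ± 12.9 CPM of Zic5 (SD, n = 20). Primitive Streak was at 58.2 ± 5.45 CPM of Zic2 (SD, n = 24), and of the 6 types ranked Early Posterior PSM was lowest at 26 ± 8.33 CPM (SD, n = 11). A small cluster, Anterior Primitive Streak, held 149 CPM of Zic2 over its 271 cells of day 3 (exact Poisson 95% interval 141 to 158, counting error only), and 158 CPM over the 137 of them with a gastruloid call (146 to 171). At day 3.5, Caudal Neurectoderm (75.5 ± 6.76 CPM, SD, n = 13) and Early Neurectoderm (72.3 CPM) led Zic5, and Early Posterior PSM was at 12.3 CPM. With the embryo reference names that the authors also gave, the leading type for Zic2 and Zic5 at day 5 was Somitic mesoderm, at a lower 69.3 ± 9.42 and 58.5 ± 16.2 CPM (SD, n = 14). The Late Anterior PSM order was shared by MULTI-seq 1 at day 5, with Zic2 at 82.4 ± 23.5 CPM and Zic5 at 95.8 ± 27.7 CPM (SD, n = 19). At day 4.5 of MULTI-seq 2, where 4 gastruloids held enough Late Anterior PSM cells to give a mean of 50.5 ± 6.81 CPM of Zic2 and 96.0 ± 10.7 CPM of Zic5 (SD), the ranked types were led by Head Mesoderm for Zic2 (29.8 CPM) and by Early Spinal Cord for Zic5 (34.3 CPM).

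**Figure D3:**
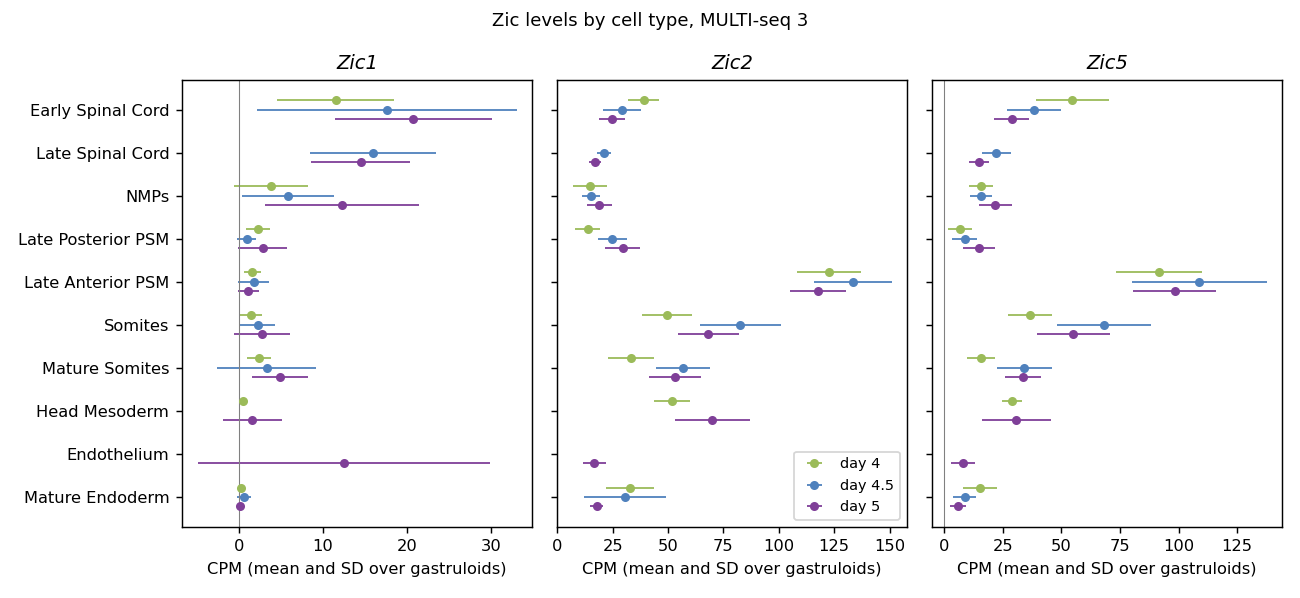
Level of Zic1, Zic2 and Zic5 (x axis, CPM) in 10 cell types (y axis) at days 4, 4.5 and 5 of MULTI-seq 3; points are means over gastruloids and bars are SDs, some of which reach below 0. Zic1 is highest in Early Spinal Cord, at 20.8 CPM at day 5, and Zic2 and Zic5 in Late Anterior PSM, at 118 and 98.3 CPM.

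The share of cells with at least 1 UMI was compared after every cell was thinned to 4000 UMIs, a depth that left out no cell. Zic1 was again led by Early Spinal Cord and Zic2 and Zic5 by Late Anterior PSM, while lower places in the order moved. At day 5 of MULTI-seq 3, Zic1 was seen in 7.34% ± 2.99 of Early Spinal Cord cells (SD, n = 16; 33.9% unthinned), 4.24% of NMPs (18.5% unthinned), 3.95% of Endothelium (7.06% unthinned) and 0.029% of Mature Endoderm cells (0.493% unthinned). Mature Endoderm is given as a type in which Zic1 is not known to be active, at a median of 36396 UMIs per cell against 31353 in Early Spinal Cord, and free RNA as the source of its UMIs was not tested. Its share rests on 2 UMIs, and was 0.272% (2.19% unthinned) at day 4.5 of MULTI-seq 3 and 0.502% (2.04% unthinned) at day 5 of MULTI-seq 1, all below the shares of Early Spinal Cord and NMPs at day 5 of MULTI-seq 3. Zic2 was seen in 36.1% of Late Anterior PSM cells (90.1% unthinned) and in 6.39% of Mature Endoderm cells (44.6% unthinned). In Mature Endoderm, Zic2 UMIs per Zic5 UMI were 3.99 ± 2.06 (SD, n = 9) against 1.33 ± 0.13 in whole gastruloids (SD, n = 16), and whether free RNA is the source of its Zic2 UMIs was not tested. Early Spinal Cord was at 8.98% ± 2.02 (SD, n = 16), NMPs at 7.28% ± 1.94 (SD, n = 16) and Late Spinal Cord at 6.52% ± 1.03 (SD, n = 8) for Zic2. For Zic5 the shares were 30.2% in Late Anterior PSM, 10.4% in Early Spinal Cord and 1.89% in Mature Endoderm. Zic4 was seen in 0.903% ± 1.01 of Endothelium cells (SD, n = 6), 0.880% ± 0.658 of Early Spinal Cord cells (SD, n = 16), 0.417% of NMPs and 0.049% of Mature Endoderm cells, so that its leading type by CPM was not the leader by thinned share, within the spread of both.

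One rare cluster stood out for Zic1 and Zic4. Late Neurectoderm, the type with the highest level of the neural factor gene Sox1, held 83 cells at day 3 of MULTI-seq 3, of which 40 were called in 18 gastruloids. Sox1 was at 69.8 CPM in these cells, against 124 CPM over all Late Neurectoderm and 78.8 CPM over all Late Spinal Cord cells. Over those 83 cells Zic1 was at 95.6 CPM (219 UMIs, exact Poisson 95% interval 83.3 to 109) and Zic4 at 22.3 CPM (51 UMIs, 16.6 to 29.3), both intervals covering counting error only. Of the 83 cells, 4 were called as doublets by their barcodes, and the 40 with a gastruloid call held 90.3 CPM of Zic1 (73.4 to 110) and 19.2 CPM of Zic4 (11.9 to 29.3). On later days of MULTI-seq 3 Zic1 in this cluster was at 28.8, 26.6, 13.6 and 31.8 CPM for days 3.5, 4, 4.5 and 5, in 113 to 249 cells. MULTI-seq 2 gave 50.4 CPM at day 4.5 (102 cells), 21.2 CPM at day 4 (11 cells) and 18.4 CPM in the 339 cells of both days that have no gastruloid call, and MULTI-seq 1 22 CPM at day 5 (93 cells). At day 3 the cluster held 27.6% ± 19.3 of the Zic1 UMIs of a gastruloid (SD, n = 15) beside 0.8% of all UMIs. Only gastruloids with at least 10 Zic1 UMIs entered, 15 of the 24 of that day. They were selected by the Zic1 count itself, so the share need not hold for the others.

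The origin of the UMIs shows how the 4 genes divide a day 5 gastruloid of MULTI-seq 3. A gastruloid entered for a gene if it held at least 10 UMIs of it, which left 12 of 16 for Zic4. Neural types carried 65.5% ± 18.7 of Zic1 UMIs (SD, n = 16) and 36.0% ± 26.7 of all UMIs. They carried 23.2% ± 17.1 of Zic2 and 30.5% ± 19.5 of Zic5 UMIs. Anterior PSM and somite types carried 58.3% ± 11.5 of Zic2 and 54.8% ± 15.5 of Zic5 UMIs, beside 36.5% ± 14.4 of all UMIs and 17.1% ± 8.3 of Zic1. Zic4 was split more evenly, with 49.4% ± 17.9 neural and 35.9% ± 13.5 in the anterior PSM and somite types (SD, n = 12). Late Anterior PSM alone carried 14.6% of Zic2 and 16.5% of Zic5 with 4.9% of all UMIs. In MULTI-seq 1 at day 5, neural types carried 72.2% ± 21.7 of Zic1 (SD, n = 24), beside 46.3% of all UMIs.

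Within types, where the makeup is held to the named cluster, Zic2 fell in Caudal Epiblast and rose in Early Posterior PSM between days 3.5 and 4 of MULTI-seq 3. In Caudal Epiblast, Zic2 had a lowest, median and highest value of 12.8, 33.3 and 55.5 CPM at day 3.5 and of 14.4, 19.9 and 37.8 CPM at day 4. It fell by 0.63 on the log2 scale (SE 0.16, edgeR adjusted p = 0.0034) and was below the earlier median in 14 of 15 gastruloids. Zic5 fell by 0.70 on the log2 scale (SE 0.17, edgeR adjusted p = 0.0024), from 53.7 to 26 CPM in the median, and was lower in 15 of 15. These were 2 members of 2 tested where 21.2% of genes were called. With at least 30 cells of the type per gastruloid, the Zic2 call was lost (adjusted p = 0.060).

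In Early Posterior PSM, over the same step, Zic2 rose from 10.5, 13.2 and 24.1 CPM to 18.2, 23.1 and 46.2 CPM (lowest, median, highest). Its log2 fold change was 0.73 (SE 0.11, edgeR adjusted p = 2.52e-06), and it was higher in 16 of 16. Zic5 passed at 0.44 (SE 0.18, edgeR adjusted p = 0.0465) but lost the call with no filter (adjusted p = 0.0529), with DESeq2 (adjusted p = 0.268) and without lane A, B or C (adjusted p = 0.0534, 0.0915 and 0.0567). In this type 38.3% of genes were called. In Early Spinal Cord and Primitive Streak, where 2.8% and 5.58% of genes were called, no member was. Zic2 thus differed in sign between Caudal Epiblast and Early Posterior PSM, each past its own threshold, and the difference itself was not tested.

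From day 4.5 to day 5, Zic5 fell in both spinal cord types and rose in Late Posterior PSM, the tailward mesoderm, and the difference between them was not tested. In Early Spinal Cord, where 12.4% of genes were called, Zic5 fell from 22.6, 35.9 and 55.1 CPM to 17.9, 26.5 and 41.3 CPM. Its log2 fold change was -0.51 (SE 0.12, edgeR adjusted p = 0.0018), and 13 of 16 later gastruloids were below the earlier median. Zic2 fell there too, by 0.35 on the log2 scale (SE 0.11, edgeR adjusted p = 0.0277; 10 of 16 lower), a call lost with DESeq2 (adjusted p = 0.079) and without lane B (adjusted p = 0.088). In Late Spinal Cord (7.79% of genes called) Zic5 fell by 0.65 on the log2 scale (SE 0.18, edgeR adjusted p = 0.0242), from 20.5 to 13.9 CPM in the median, in 7 of 8 gastruloids, but not past the threshold without lane A (adjusted p = 0.0946).

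In Late Posterior PSM (6.88% of genes called) Zic5 rose. Its values were 4.16, 6.88 and 24.8 CPM at day 4.5 and 2.96, 15.2 and 29.9 CPM at day 5, with overlapping ranges. The log2 fold change was 0.93 (SE 0.20, edgeR adjusted p = 0.0010), and 14 of 16 lay above the earlier median. In Late Posterior PSM of MULTI-seq 2, from day 4 to day 4.5 (1.13% called), no member passed the filter on low counts. The leading type, Late Anterior PSM (2.86% called), had no member past the threshold, with Zic2 at -0.20 (edgeR adjusted p = 0.158). The same held for Somites (3.6%), Mature Somites (14%), Mature Endoderm (1.63%) and NMPs (7.55%). In Mature Endoderm, Zic2 was at -0.80 (edgeR adjusted p = 0.085, 9 of 9 lower) and passed with no filter (adjusted p = 0.0493) and without lane C (adjusted p = 0.0424). Zic1 did not pass in any type in which it was tested, with 0.51 in Early Spinal Cord (edgeR adjusted p = 0.248, 14 of 16 higher). Neural and somitic sums of the same gastruloids were also set against each other, and the day 5 effect did not differ past the threshold for any of the 4 members (permutation test of the difference over 4 tests, n = 16 and 14). The Zic1 difference was -0.45 (adjusted p = 0.634), and -1.07 with at least 30 cells in each sum (permutation, adjusted p = 0.0406, n = 15 and 9).

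**Figure D4:**
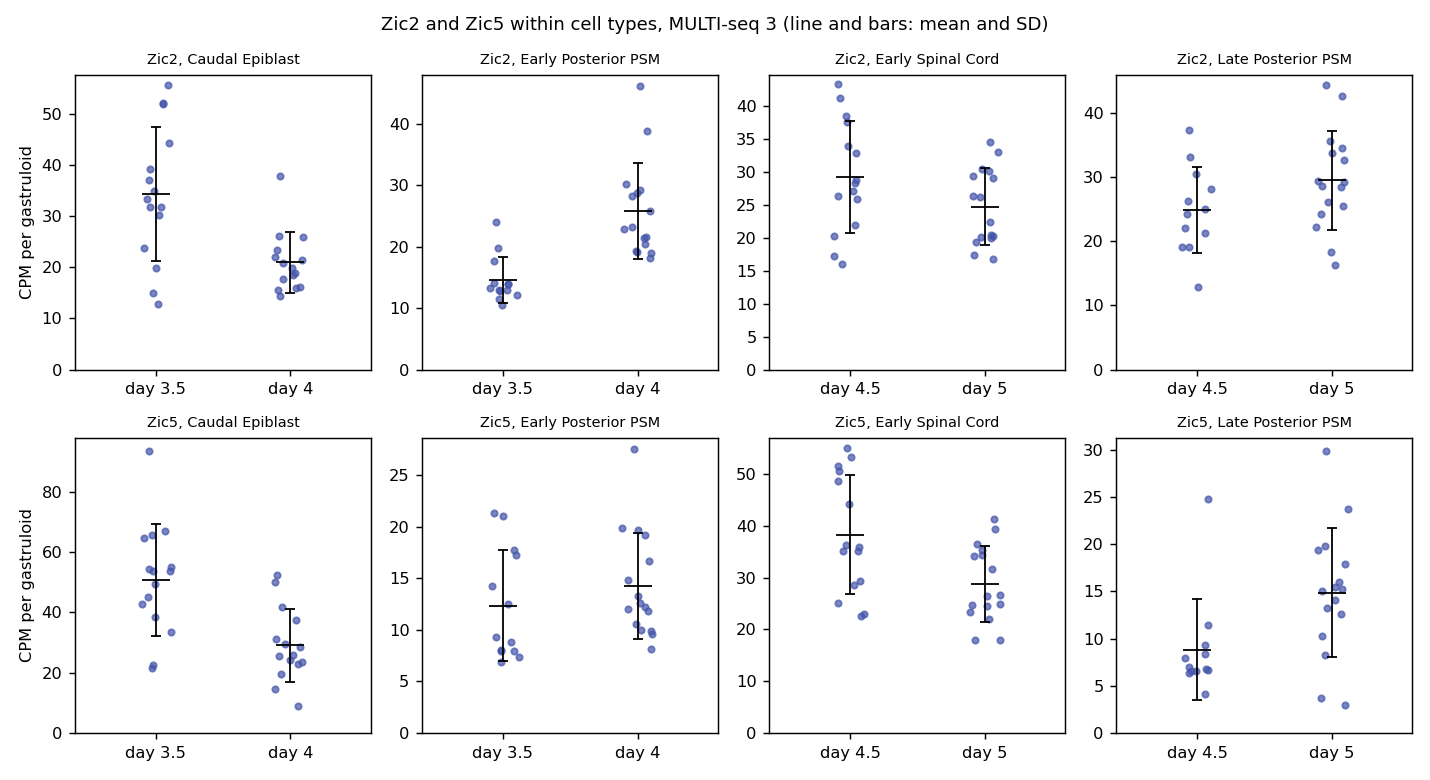
Zic2 (top) and Zic5 (bottom) in single types (y axis, CPM per gastruloid; 1 dot per gastruloid, bar at the mean with SD) at days 3.5 and 4 for Caudal Epiblast and Early Posterior PSM and at days 4.5 and 5 for Early Spinal Cord and Late Posterior PSM, all from MULTI-seq 3. Zic2 is lower at day 4 in Caudal Epiblast, 21.0 against 34.2 CPM in the mean, and higher in Early Posterior PSM, 25.8 against 14.6 CPM.

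The partners of each pair were also counted in the same cells. Of Early Spinal Cord cells at day 5 of MULTI-seq 3, Zic4 was seen in 12.2% of the 575 cells with a Zic1 UMI and in 1.54% of the 1295 without, at median depths of 34156 and 30360 UMIs. In Mature Somites it was seen in 12.4% of 186 and 1.80% of 3004 cells, at 32436 and 24596 UMIs. Shares with and without Zic1 were 8.05% of 149 and 1.85% of 701 NMPs, and 4.24% of 613 and 1.08% of 1485 Late Spinal Cord cells. For Somites they were 4.76% of 21 and 1.99% of 301 cells, so the first share rests on few cells. In Late Posterior PSM they were 0% of 45 and 0.22% of 894 cells. Zic2 was seen in 58.5% of 955 Early Spinal Cord cells with a Zic5 UMI and in 39.0% of 915 without, at 33798 and 29292 UMIs. Depth differed between the cells compared, and Zic1 and Zic4 overlap in the genome. The part of depth or of the overlap was not tested. Zic4 UMIs per Zic1 UMI were 0.103 ± 0.066 in Early Spinal Cord (SD, n = 16), 0.044 ± 0.022 in Late Spinal Cord (SD, n = 8) and 0.234 ± 0.113 in Mature Somites (SD, n = 15). Zic2 UMIs per Zic5 UMI were 0.875 ± 0.141 in Early Spinal Cord, 1.23 ± 0.25 in Late Anterior PSM and 1.59 ± 0.16 in Mature Somites, where they ran from 1.37 to 2.01. Over whole gastruloids the ratio was 1.11 ± 0.11 at day 3 (SD, n = 24) and 1.33 ± 0.13 at day 5 (SD, n = 16).

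In whole gastruloids, Zic2 differed between experiments more than Zic5. At day 4, Zic2 was 7.49, 16.1 and 21.8 CPM (lowest, median, highest) in MULTI-seq 2 and 32.7, 44.3 and 58.5 CPM in MULTI-seq 3, with no overlap. The log2 difference, MULTI-seq 3 over MULTI-seq 2, was 1.39 (edgeR adjusted p = 5.8e-10, higher in 16 of 16), in a comparison with 46.1% of genes called. Zic5 did not pass, at -0.20 (adjusted p = 0.44). At day 4.5 (42.5% called) Zic2 was higher by 1.58 (edgeR adjusted p = 9.3e-13, 16 of 16) and Zic5 was at 0.18 (adjusted p = 0.28). At day 5 against MULTI-seq 1 (63.7% called) Zic2 was higher by 0.92 (edgeR adjusted p = 2.4e-12, 15 of 16) and Zic5 by 0.28 (adjusted p = 0.0067, 9 of 16), while Zic1 did not pass (0.06, adjusted p = 0.86). These comparisons were added after the data were seen, and experiment and mitochondrial share cannot be told apart in them. Depth also differed between lanes, and its part was not tested. Lane C of days 3.5 and 4 of MULTI-seq 3, at a median of 26900 UMIs per cell, held 1.19 Zic2 UMIs per Zic5 UMI. Lane 2 of MULTI-seq 2, of days 4 and 4.5, held 0.47 at a median of 27116. These 2 lanes differ in days as well as in experiment.

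The log2 ratio of Zic2 to Zic5 was higher in MULTI-seq 3 by 1.66 at day 4, 1.40 at day 4.5 and 0.63 at day 5 (permutation test, adjusted p = 3.0e-05 at day 4, from the smallest p of 1e-05 that the permutations can give). All 16 MULTI-seq 3 gastruloids lay above the other experiment's median on each day. Within types the difference was 1.48 in Early Spinal Cord at day 4.5 (15 of 15) and 1.45 in Early Anterior PSM at day 4 (14 of 14). It was 1.92 in Early Posterior PSM at day 4 (16 of 16), where Zic2 was at 25.8 ± 7.77 CPM (SD, n = 16) against 13.3 ± 9.95 CPM in MULTI-seq 2 (SD, n = 5) and Zic5 at 14.2 ± 5.14 against 26.9 ± 13.96 CPM. The ratio alone was tested there, and the Zic5 means differed by less than the larger SD. The ratio difference was 1.82 in Late Spinal Cord at day 4.5 (7 of 7). Zic2 was at 20.9 ± 3.14 CPM there against 8.37 ± 3.17 CPM in MULTI-seq 2 (SD, n = 7 and 5). Zic5 was at 22.3 ± 6.05 against 30.5 ± 4.19 CPM, and these Zic5 means differed by more than the larger SD. At day 5 the ratio difference was 0.54 in Early Spinal Cord, 0.48 in Late Anterior PSM and 0.06 in Late Spinal Cord. The last was the 1 of 15 comparisons that did not pass (permutation, adjusted p = 0.801).

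The lanes show the same for Zic2. Lane 1 of MULTI-seq 1 held 18.5 ± 4.33 CPM of Zic2 against 24.1 ± 4.91 CPM on lanes 2 and 3 in the same gastruloids (SD, n = 23). It was lower in 21 of 23 (sign permutation test, adjusted p = 3.2e-04 over the 4 members), whereas Zic5 was at 27.3 against 26.6 CPM (sign permutation, adjusted p = 0.88). The median depth of that lane was 8287 UMIs per cell, against 11348 and 15709 on the others. Over lanes, Zic2 UMIs per Zic5 UMI ran from 0.38 to 0.49 in MULTI-seq 2 and from 1.07 to 1.33 in MULTI-seq 3, and were 0.50 and 0.61 on the 10X lanes. The 10X lane of day 3 held 23.8 CPM of Zic2 (exact Poisson 95% interval 22.5 to 25.1, counting error only), and both MULTI-seq 3 lanes of that day held 68.0 and 63.9 CPM. The Zic2 levels above are therefore compared between types or days only within an experiment. This does not remove a difference between lanes or pools of 1 experiment, such as that between the lanes of MULTI-seq 1.

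**Figure D5:**
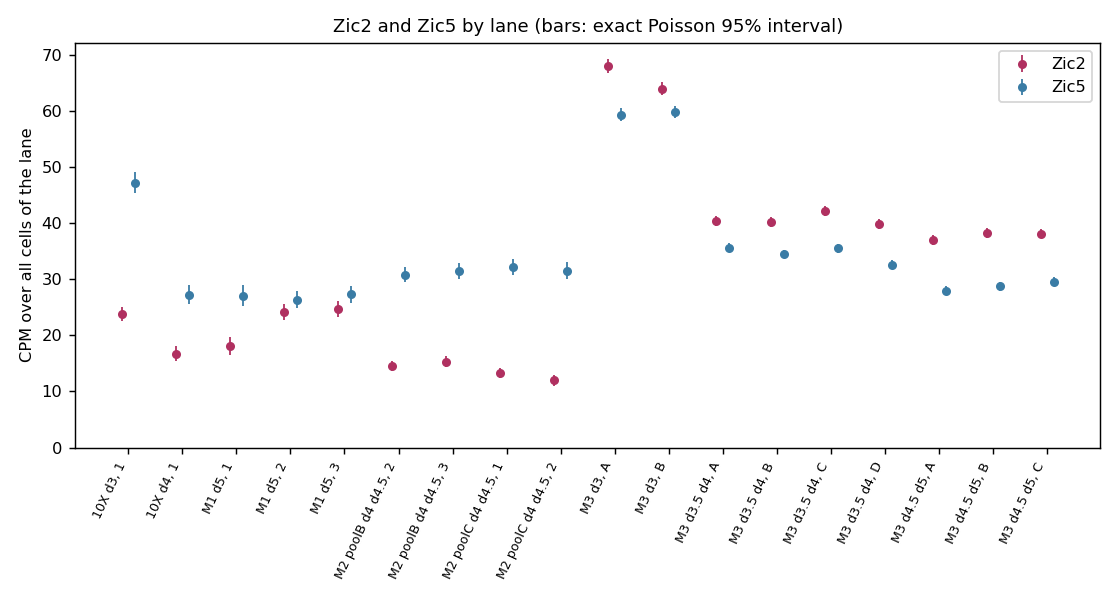
Zic2 and Zic5 (y axis, CPM over all cells of a lane) on each of the 18 lanes (x axis), with exact Poisson 95% intervals. Zic2 is at 63.9 and 68.0 CPM on the day 3 lanes of MULTI-seq 3 and at 23.8 CPM on the 10X lane of that day.

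The genes most like each member were sought over 46 combinations of type and day in MULTI-seq 3, among 10108 genes, by Pearson's r of the log2 mean levels, with the r over 18 combinations of MULTI-seq 1 and 2 beside it. The points share libraries and gastruloids, so r is a description. Zic2 and Zic5 were each other's closest gene in MULTI-seq 3 (r = 0.862), but not in the others (0.714), where genes named next had a higher r. Next to Zic2 came Ripply1 (0.698, 0.744), a gene of somite segmentation, then Kctd6 (0.677, 0.803), Nbl1 (0.630, 0.875), which encodes a BMP antagonist, and Eif2b1 (0.623, 0.450). Next to Zic5 came March5 (0.745, 0.711), Cyb5r4 (0.676, 0.748), Ccne1 (0.674, 0.523) and Eif2b1 (0.663, 0.145). Zic1 was closest to Eif5 (0.889, 0.773), a translation factor gene, and Pou3f2 (0.849, 0.921), a neural progenitor gene, followed by Raly (0.815, 0.746), Psmd7 (0.808, 0.818) and Plekhj1 (0.788, 0.487). Zic4 was closest to Zic1 (0.777, 0.839), then Eif5 (0.725, 0.764), 1500015A07Rik (0.714, -0.113), Ccnd3 (0.700, 0.760) and Raly (0.698, 0.809). Zic1 and Zic2 gave r = -0.272, and Zic1 and Zic5 -0.01.

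Around the step at which Zic1 rose in MULTI-seq 2, day 4 to day 4.5, neural progenitor genes were called higher for 3 of 12 tested, with a median log2 fold change of 1.31 (-0.002 over all genes), beside 7.36% of all genes tested called in either direction. They were Pou3f2 at 3.77, Hes5, a Notch target, at 1.92 and Pax6 at 2.18. Ventral and intermediate neural tube genes had 1 of 3 higher (Pax6) and 1 lower (Foxa2, -1.87), with a median of 0.86, and neuron differentiation genes 1 of 3 higher (Elavl4, 1.05), with a median of 0.94. BMP genes, with 1 of 11 higher (Id2, 1.07; median -0.28), were near the share over all genes. Epiblast genes had 2 of 5 lower (Dnmt3b -0.79, Pou5f1 -1.92; median -0.79), and caudal progenitor genes 2 of 9 lower (Cdx1 -1.93, T -1.29; median -0.45). None was called of 3 dorsal neural tube genes (median -0.32), 8 Gli, Glis and hedgehog genes (-0.08), 5 neural crest genes (0.90) and 9 somite genes (0.21).

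At the step from day 3.5 to day 4 of MULTI-seq 3, with Zic5 lower, somite genes were higher for 8 of 8 tested, with a median log2 fold change of 3.68 (0.009 over all genes), beside 60.4% of all genes tested called in either direction. The examples are Tcf15 at 4.67, Meox1 at 4.47, Dmrt2 at 4.10 and Pax3 at 3.75. BMP ligands, antagonists and targets were higher for 10 of 12 (median 1.01), among them Id3 at 1.14, Bmp5 at 1.88, Smad7 at 1.05 and Smad6 at 0.77. Dorsal neural tube genes, the class to which Zic1 belongs in the embryo, had 3 of 6 higher and 1 lower (median 0.71; Pax3, Pax7 1.75, Msx2 1.58, Wnt3a -1.22). Ventral and intermediate genes had 4 of 6 higher and 1 lower (median 1.43; Irx3 1.74, Foxa2 1.76, Pax6 1.11, Shh 2.59). Gli, Glis and hedgehog genes had 6 of 10 higher and 1 lower (median 0.25; Smo 0.19, Gli3 0.32, Ptch1 0.89, Gli2 -1.06). The dorsal and the Gli, Glis and hedgehog counts are near the share over all genes, and nothing is read from them about those lists.

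Neural progenitor genes had 3 of 12 higher and 4 lower at that step, near the 60.4% called over all genes (median -0.61; Pou3f3 2.08, Pax6 1.11, Nes -1.10, Pou3f1 -0.96). Neuron genes had 1 of 5 higher and 3 lower (median -1.34; Isl1 1.54, Neurod1 -1.41, Elavl3 -1.34, Tubb3 -1.41), and neural crest genes 3 of 6 higher and 1 lower, again near that share (median 0.99; Pax3, Sox9 1.72, Snai2 1.51, Tfap2a -0.89). Epiblast genes had 2 of 10 higher and 4 lower (again near that share; median -0.31; Otx2 2.94, Pou5f1 -2.62, Nanog -1.32, Dnmt3b -0.44). Caudal progenitor genes had 7 of 9 lower (median -1.42; Cdx1 -2.44, T -1.46, Nkx1-2 -2.21, Cdx2 -1.49).

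From day 4.5 to day 5 of MULTI-seq 3, with no member called, 13.5% of all genes tested were called in either direction (median over all genes -0.0007). Somite genes had 2 of 11 higher (Uncx 1.24, Meox2 1.52) and 1 lower (Aldh1a2 -1.14), with a median of 0.23. Of 6 dorsal neural tube genes 1 was lower (Draxin -0.58; median -0.30), and of 9 caudal progenitor genes 1 was lower (Cdx1 -1.46; median -0.54). Neural crest genes had 1 of 6 higher (Ets1 1.40; median 0.24), BMP genes 1 of 11 higher (Id3 0.26; median 0.13), and epiblast genes 1 of 5 lower (Dnmt3b -0.38; median -0.38). None was called of 7 ventral and intermediate genes (median 0.26), 11 Gli, Glis and hedgehog genes (0.02), 12 neural progenitor genes (-0.09) and 4 neuron genes (-0.41).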

How the data were processed

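The authors deposited raw UMI counts per gene and cell from Cell Ranger 6.0.0 on mm10, per the submitters' processing notes, and a cell table with cell type names, gastruloid calls and days. Counts of called cells were summed per gastruloid (at least 30 cells), or per gastruloid and type (at least 10 cells, 5 gastruloids per day). Sums were tested with edgeR 4.0.16 (quasi-likelihood, TMM, filter on low counts, Benjamini-Hochberg over all genes tested, threshold 0.05; R 4.3.3). Alternatives were DESeq2 1.42.0, RLE size factors, no filter, more cells and leaving out each lane. The permutation tests used 100000 resamples of log2(CPM + 1), or enumerated all. Data were simulated for day 4 against day 3.5 with 200 changed genes of 14648 and the same dispersion for every gene. There edgeR recovered 52.2%, 82.1% and 97.0% of 1.5-, 2- and 4-fold changes, with 2.53% false calls. In the real comparison 60.4% of genes were called, so these rates need not hold for it. The log2 Zic2 to Zic5 ratio added 0.5 UMI to each gene. Ratios of 2 genes and shares of origin used sums with at least 10 UMIs of the pair or gene.

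Members and lists were chosen with earlier results of these data known. The text names the members, the 5 genes most like each, and up to 4 genes of a list with the smallest adjusted p. The lists are dorsal neural tube, ventral and intermediate neural tube, Gli, Glis and hedgehog, BMP, neural progenitor, neuron, neural crest, somite, epiblast and caudal progenitor genes. The authors' expression-based doublet column marks no cell of the table, and 4797 cells whose MULTI-seq barcodes were called as doublets belong to no gastruloid sum. No other doublet caller was run. Both MULTI-seq 2 pools of days 3 and 3.5 were left out. Gastruloids come from separate wells, and p-values measure their spread within 1 line. Exact Poisson intervals at the 95% level cover counting error only.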

Additional observations from a re-analysis of the deposited data

How the results depend on the processing

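Over the alternatives, the values for whole gastruloids, counts of called genes, ratios and differences of day effects kept direction and call in 289 cases, moved in 2, reversed in 6, gained a call in 7 and lost one in 4. For values within types and shares of cells these numbers were 216, 30, 6, 2 and 9. The Zic5 change from day 3.5 to day 4 of MULTI-seq 3 lost its call with no filter (-0.458, adjusted p = 0.0537), with at least 100 cells (-0.430) and by permutation (-0.400). The Zic5 change from day 4.5 to day 5 gained a call with RLE (-0.300), DESeq2 (-0.2995), permutation (-0.277) and without lane A (-0.329; -0.280 without lane C). The Zic1 change from day 3.5 to day 4 gained one without lane A or C (-0.724 and -0.754; -0.540 without lane B), and that from day 3 to 3.5 lost it without lane A (0.528; 0.695 without lane B). Zic5 turned positive from day 4 to 4.5 of MULTI-seq 2 with at least 100 cells (0.050) and without lane 3 (0.055; -0.194 without lane 2), and between MULTI-seq 3 and 2 at day 4 with at least 100 cells (0.036) and without that lane (0.0075; down to -0.215 without other lanes). None of these was called. The genes called in MULTI-seq 2 were 814, and 535 and 340 without lane 2 or 3. In MULTI-seq 3, Zic2 from day 4 to 4.5 turned sign by permutation (-0.081, adjusted p = 0.455), uncalled in both tests. With at least 30 cells per sum, the neural minus somitic effect was -1.07 for Zic1 and -0.0013 for Zic5. Uncalled values within types turned sign without a lane for Zic2 in Early Spinal Cord at day 4 (-0.092, -0.014 and up to 0.165), Zic1 in Late Spinal Cord (-0.166 to 0.126) and Zic5 in Mature Somites (-0.0057, -0.0032 and up to 0.012, with -0.015 by DESeq2). The causes were not tested. The adjusted p of the Zic1 rise in MULTI-seq 2 lay between 0.0015 and 0.042 over the 5 alternatives that gave one, against 7 for Zic2 and Zic5. Zic4 did not pass the filter on low counts. Without it, edgeR called Zic4 from day 4 to 4.5 of MULTI-seq 3, across pools (0.89, adjusted p = 2.3e-04), as did the permutation test (0.242, adjusted p = 0.0041). No paired analysis was possible because, between days, a gastruloid has 1 day and lane numbers do not pair gastruloids; lanes and cell classes within a gastruloid were compared as pairs in the report.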
